A study of Mus musculus with 6 samples.

Results

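The 10 genes described here mark or build primordial germ cells, the embryonic founders of sperm and eggs: Dppa3, Dppa4, Dppa5a, Nanos3, Dnd1, Pou5f1, Prdm1, Prdm14, Tfap2c and Kit. They were chosen by name as a list, and all 10 have a row among the 37310 gene identifiers listed for every library. The 2269 identifiers of chromosome X are listed at 0 throughout, and none of the members lies on it. The samples were tailbuds of embryonic day 9.5 embryos on an outbred CD-1 background, with 3 libraries of WT/WT genotype and 3 homozygous for Danforth's short tail (Sd/Sd), a semidominant mutation that shortens the tail and disturbs notochord and hindgut. Polyadenylated RNA was sequenced to between 41788978 and 62296689 counts per library. Tailbuds of more than 1 embryo were pooled where material was short, and the sources used here do not say in which libraries. No label ties a library to its own litter, and p-values therefore describe only how these 6 libraries vary, which may be technical.

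Ptf1a, the gene beside the insertion, had 1 to 5 counts per WT library and 848 to 959 per Sd/Sd library, so no library went against its label. T, the Brachyury gene of tailbud mesoderm, was present in all libraries at 77.1 to 203 CPM. Sd/Sd replicates 2 and 3 stood apart from each other in somatic tissue. The mean centred log2 CPM of a neural crest list was 0.81 and -1.11 in them, against -0.25 to 0.36 in the other 4 libraries. That of a tailbud progenitor list was -0.66 and 0.36, against -0.09 to 0.37 in the other 4 libraries. On the tailbud list only Sd/Sd replicate 2 thus lay outside the range of the others. For the tested germ cell genes, log2 fold changes are also given without 1 or each of these libraries. Other genes and lists are given over all libraries only, apart from Shh, Ihh and the counts of calls.

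Mouse primordial germ cells arise in the posterior embryo under bone morphogenetic protein signals, which switch on Prdm1, Prdm14 and Tfap2c. They then move into the hindgut wall and migrate along it towards the future gonads, and during this migration they need the receptor Kit and the RNA-binding proteins Nanos3 and Dnd1. At the stage sampled the cells sit in and around the hindgut, so a dissected tailbud can hold few or many of them. Several of the 10 genes are also used elsewhere, Kit in blood progenitors, melanoblasts and other embryonic tissue, Prdm1 in endoderm and mesenchyme, and Tfap2c in surface ectoderm. In bulk RNA, fewer cells of a type and less RNA per cell cannot be told apart.

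No germ cell gene passed the test between genotypes. Of the 10, 9 had enough counts to be tested by the quasi-likelihood method of edgeR, with Benjamini-Hochberg adjustment over 15471 genes and a threshold of 0.05. Of those 9, 0 were higher in Sd/Sd (0.0388% of all genes tested were) and 0 were lower (0.0194% of all), with 0.0582% of all genes called in either direction. At an unadjusted p under 0.05 the count was also 0 of 9, against 2.9% of all genes. DESeq2 and limma-voom likewise called 0. The log2 fold changes of the 9 (Sd/Sd over WT) had a median of -0.13 and ran from -0.63 for Dppa4 to 0.03 for Prdm14. A negative sign was found for 8 of 9, against 50.1% of all genes tested, for 9 of 9 with the replicate block, and for between 5 of 9 (without WT replicate 3) and 10 of 10 (without WT replicate 1 or 2, where Dppa5a was also tested) when 1 library was left out. What varied was the library: Pou5f1 and the Dppa genes were highest in WT replicate 3 and Sd/Sd replicate 2 within their groups. For Dppa4 and Dppa5a the counting intervals of the WT libraries overlapped, and for Dppa3 those of WT replicates 1 and 3 did.

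**Figure D1:**
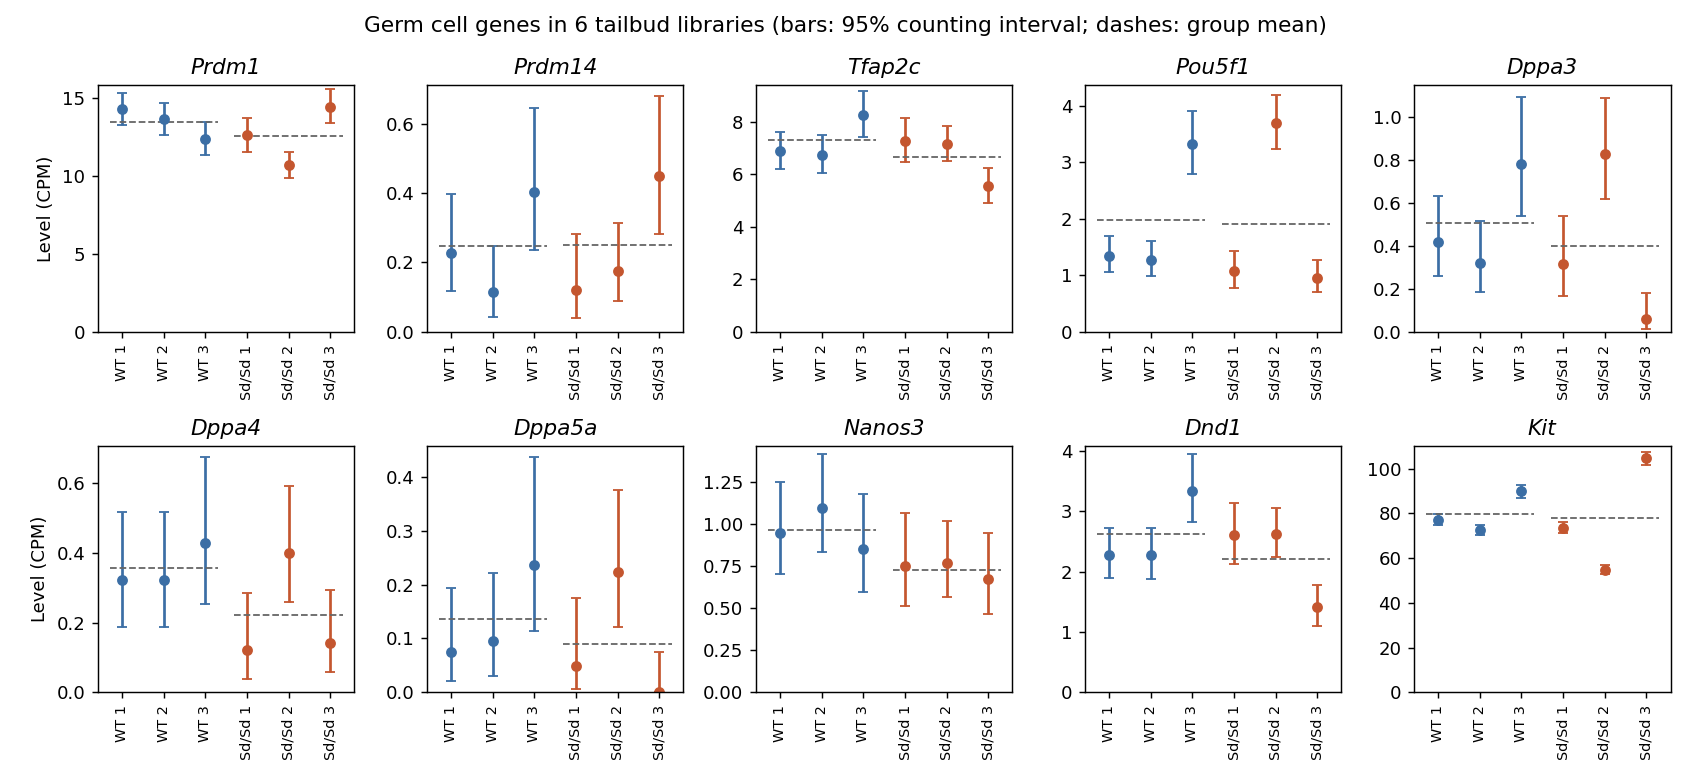
Level of each of the 10 germ cell genes (y axis, CPM, starting at 0) in the 3 WT and 3 Sd/Sd libraries (x axis); bars are 95% exact counting intervals and dashed lines are group means. Pou5f1 stands at 3.32 and 3.69 CPM in WT replicate 3 and Sd/Sd replicate 2 and at 0.959 to 1.35 CPM in the other 4 libraries.

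The unit of level is CPM, in which each library is scaled to the same size. Between genes, levels were compared per kilobase of exon, since long transcripts collect more reads. On that scale Kit stood highest in WT at 8.96 ± 1.01 CPM per kb (SD, n = 3), followed by Prdm1 at 2.41 ± 0.174 and Tfap2c at 1.98 ± 0.231 CPM per kb. These 3 are also known from other tissues of the embryo. The WT libraries of Prdm1 (lowest 2.22 CPM per kb) and Tfap2c (highest 2.25 CPM per kb) overlapped, so these neighbours in the order are not separated by their spread. Dnd1, Nanos3 and Pou5f1 followed at means of 1.09, 1.05 and 0.879 CPM per kb in WT. The mean of Dnd1 lay within the WT range of Nanos3, and that of Nanos3 within the WT range of Pou5f1. The WT ranges of neighbours in this order were apart only between Kit and Prdm1, between Tfap2c and Dnd1, and between Dppa4 and Prdm14. Dppa3 stood at 0.568, Dppa5a at 0.219, Dppa4 at 0.215 and Prdm14 at 0.0967 CPM per kb in WT. The order in Sd/Sd differed only in that Pou5f1 (0.847 CPM per kb) and Nanos3 (0.791 CPM per kb) changed places.

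**Figure D2:**
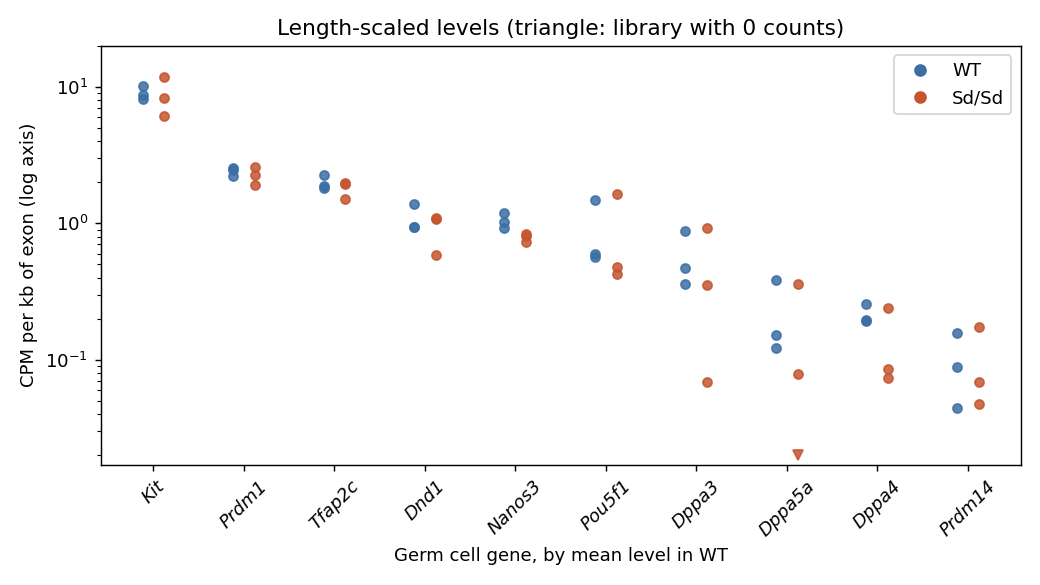
CPM per kilobase of exon (y axis, log scale) for each germ cell gene (x axis, ordered by WT mean), 1 point per library, WT in blue and Sd/Sd in orange; a triangle at the bottom marks a library with 0 counts. Kit, Prdm1 and Tfap2c lie above all other members in every library of their own group, apart from Pou5f1 in Sd/Sd replicate 2 (1.64 CPM per kb), which lies above the lowest Tfap2c library (1.51 CPM per kb).

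Promoter sequence was at hand from RefSeq (GRCm38.p6) for 4 of the 10 members, Nanos3, Pou5f1, Prdm1 and Kit. Those of Nanos3, Pou5f1 and Kit are shown because these genes had 3 different patterns over the libraries: Nanos3 was lower in every Sd/Sd library, Pou5f1 was high in 1 library of each group, and Kit had its lowest and highest level both in Sd/Sd. Each runs from 250 bases before to 50 bases after the start, 5′ to 3′ on the gene's strand. Capitals mark matches to GCCNNNGGC, a form of the site bound by TFAP2 factors, and to GGGCGG, the GC box bound by Sp factors, on either strand.
Nanos3, chr8:84176503-84176802, minus strand: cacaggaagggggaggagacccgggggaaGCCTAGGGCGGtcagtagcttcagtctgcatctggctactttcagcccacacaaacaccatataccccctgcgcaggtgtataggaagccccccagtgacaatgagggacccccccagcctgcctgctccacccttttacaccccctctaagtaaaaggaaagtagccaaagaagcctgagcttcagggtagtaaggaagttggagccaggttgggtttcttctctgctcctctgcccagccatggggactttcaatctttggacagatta
Pou5f1, first listed start, chr17:35505782-35506081, plus strand: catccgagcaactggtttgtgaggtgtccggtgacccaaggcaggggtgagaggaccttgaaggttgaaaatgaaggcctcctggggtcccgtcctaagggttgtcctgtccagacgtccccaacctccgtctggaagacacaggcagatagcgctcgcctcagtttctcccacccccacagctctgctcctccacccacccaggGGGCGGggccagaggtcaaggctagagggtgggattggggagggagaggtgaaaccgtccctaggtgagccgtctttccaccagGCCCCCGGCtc
Kit, first listed start, chr5:75574737-75575036, plus strand: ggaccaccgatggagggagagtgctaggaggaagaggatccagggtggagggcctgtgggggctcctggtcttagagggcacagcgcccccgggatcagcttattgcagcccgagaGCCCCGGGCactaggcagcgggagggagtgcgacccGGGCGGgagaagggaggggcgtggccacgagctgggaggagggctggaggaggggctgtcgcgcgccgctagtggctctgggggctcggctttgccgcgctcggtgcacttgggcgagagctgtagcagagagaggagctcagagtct

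Each of the 3 sequences holds 1 match to GCCNNNGGC and 1 to GGGCGG. The TFAP2 match begins at base 30 in Nanos3, where it overlaps the GC box match at base 35, at base 290 in Pou5f1 and at base 117 in Kit. Among 32851 promoters of the same length, 16.6% hold GCCNNNGGC and 35.7% hold GGGCGG. The Prdm1 promoter and the second listed start of Pou5f1 hold neither. The octamer ATGCAAAT bound by POU factors (1.74% of all promoters), the T-box site TCACACCT (1.28%) and the E-box CACGTG (7.15%) were searched on both strands and are not in these windows of the 4 genes. A match is a run of letters and was not measured here as a binding site.

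The specification factors were measured at very different depth. Prdm1 (ENSMUSG00000038151.6, chromosome 10) encodes BLIMP1, the repressor that shuts off somatic genes in germ cell precursors. It measured 14.3, 13.6 and 12.4 CPM in WT replicates 1 to 3 and 12.6, 10.7 and 14.4 CPM in Sd/Sd replicates 1 to 3. The groups overlapped, and both the highest and the lowest library were Sd/Sd. The means were 13.4 ± 0.973 and 12.6 ± 1.89 CPM (SD, n = 3), with a log2 fold change of -0.10 ± 0.14 (SE; 95% interval -0.42 to 0.22; edgeR adjusted p = 1.00), the narrowest interval of the 9. This log2 fold change was 0.01 without Sd/Sd replicate 2 and -0.21 without Sd/Sd replicate 3.

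Tfap2c (ENSMUSG00000028640.5, chromosome 2), which encodes the AP-2γ factor downstream of Prdm1, measured 6.86, 6.74 and 8.27 CPM in WT against 7.28, 7.15 and 5.55 CPM in Sd/Sd. Sd/Sd replicate 3 was the lowest library and the other two Sd/Sd libraries lay within the WT range. The log2 fold change was -0.13 ± 0.17 (SE; 95% interval -0.52 to 0.26; edgeR adjusted p = 1.00), and -0.01 without Sd/Sd replicate 3. Prdm14 (ENSMUSG00000042414.7, chromosome 1) encodes a PR-domain regulator of germ cell and pluripotency genes and was the rarest member per length. It had 12, 6 and 17 counts in WT and 5, 11 and 22 counts in Sd/Sd. Its group means were 0.248 ± 0.146 and 0.249 ± 0.175 CPM (SD, n = 3), and its 95% interval reached from -1.46 to 1.52 on the log2 scale, so that a change of a size within it was not detectable in these libraries. The log2 fold change of Prdm14 was 0.03 over all libraries and -0.68 without Sd/Sd replicate 3.

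Pou5f1 and the Dppa genes varied widely between libraries. Pou5f1 (ENSMUSG00000024406.9, chromosome 17) encodes OCT4, a pluripotency factor that fades from the somatic embryo before this stage and persists in germ cells. It measured 1.35, 1.27 and 3.32 CPM in WT against 1.07, 3.69 and 0.959 CPM in Sd/Sd. One library of each group was high and the other 4 were low, with overlap between groups. The counting intervals of the high libraries (2.79 to 3.91 CPM in WT replicate 3 and 3.23 to 4.20 CPM in Sd/Sd replicate 2) did not reach those of the low ones, the highest of which ended at 1.70 CPM. The group means were 1.98 ± 1.16 and 1.91 ± 1.55 CPM (SD, n = 3), with a log2 fold change of -0.03 ± 0.63 (SE; 95% interval -1.53 to 1.46; edgeR adjusted p = 1.00). This value moved most without a high library, to 0.55 without WT replicate 3 and -0.96 without Sd/Sd replicate 2. It also moved without a low library, to -0.25 and -0.27 without WT replicates 1 and 2. Without Sd/Sd replicates 1 and 3 it was 0.25 and 0.29.

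Dppa3 (ENSMUSG00000046323.2, chromosome 6) encodes STELLA, a germ cell protein that protects DNA methylation in the early embryo and is a classical marker of primordial germ cells. It had 22, 17 and 33 counts in WT and 13, 52 and 3 counts in Sd/Sd, or 0.417, 0.322 and 0.782 CPM against 0.315, 0.830 and 0.0612 CPM. The highest and the lowest library were again both Sd/Sd, 13.6-fold apart, while the WT libraries differed by 2.43-fold at most. The counting interval of Sd/Sd replicate 3, 0.0126 to 0.179 CPM, lay below those of every library other than Sd/Sd replicate 1, whose interval was 0.168 to 0.539 CPM. The group difference was a log2 fold change of -0.28 ± 0.76 (SE; 95% interval -2.02 to 1.45; edgeR adjusted p = 1.00), and it was -1.44 without Sd/Sd replicate 2 and 0.22 without Sd/Sd replicate 3.

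Dppa4 (ENSMUSG00000058550.7, chromosome 16), which encodes a chromatin protein of pluripotent cells, had 17, 17 and 18 counts in WT and 5, 25 and 7 counts in Sd/Sd. Sd/Sd replicates 1 and 3 lay below every WT library and Sd/Sd replicate 2 lay among them. The log2 fold change was -0.63 ± 0.55 (SE; 95% interval -1.87 to 0.61; edgeR adjusted p = 1.00), the largest of the 9 in size. Without Sd/Sd replicate 2 it was -1.41 (unadjusted p = 0.0402, edgeR adjusted p = 0.830), and without Sd/Sd replicate 3 it was -0.39. Dppa5a (ENSMUSG00000060461.5, chromosome 9) encodes an RNA-binding protein of pluripotent and germ cells and fell below the filter on low counts. It had 4, 5 and 10 counts in WT and 2, 14 and 0 counts in Sd/Sd. The counting interval of the 0 in Sd/Sd replicate 3 ends at 3.69 counts, or 0.0752 CPM. Its summed counts, scaled for library size, gave a ratio of Sd/Sd to WT of 0.814 (95% counting interval 0.392 to 1.67), of 0.172 without Sd/Sd replicate 2, 1.23 without WT replicate 3 and 1.20 without Sd/Sd replicate 3. Fitted with no filter, its log2 fold change was -0.48 ± 1.04 (SE; edgeR adjusted p = 1.00).

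The 4 genes shared their order of libraries in part. In Pou5f1, Dppa3, Dppa4 and Dppa5a, WT replicate 3 was the highest WT library and Sd/Sd replicate 2 the highest Sd/Sd library. Dnd1 had the same pair, though its Sd/Sd replicates 1 and 2 were nearly equal. For Dppa4 the place of WT replicate 3 rests on 17, 17 and 18 counts, and for Dppa5a on 4, 5 and 10. The counting intervals of the WT libraries overlapped for both genes. For Dppa3 the interval of WT replicate 3 (0.538 to 1.10 CPM) overlapped that of WT replicate 1 (0.261 to 0.632 CPM). Of all genes tested, 6.88% had this pair of highest libraries, as did 4 of the 9 tested members (Dppa3, Dppa4, Dnd1 and Pou5f1). The pair was looked at after the values were seen. WT replicate 3 was the highest WT library for 7 of the 9 tested members and for 33.4% of all genes. Sd/Sd replicate 3 was the lowest library of all 6 for Dppa3, Dppa5a, Nanos3, Dnd1, Pou5f1 and Tfap2c and the highest for Prdm1, Prdm14 and Kit. This too was looked at after the values were seen, and the share of all genes with it lowest was not computed. It was the highest Sd/Sd library for 3 of the 9 tested members and for 35% of all genes.

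**Figure D3:**
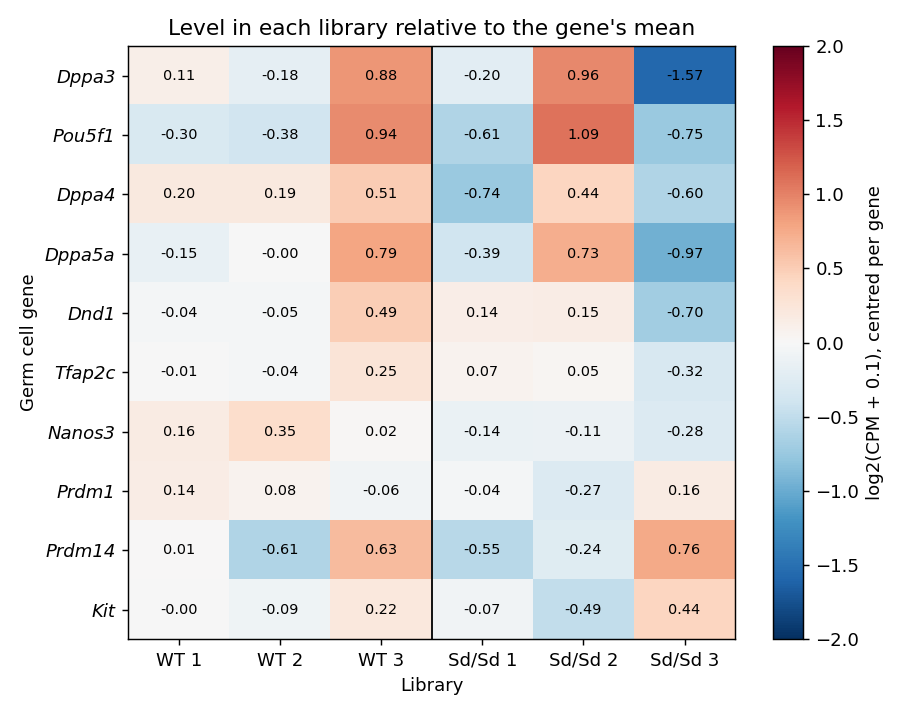
log2(CPM + 0.1) of each germ cell gene (rows) in each library (columns), centred on the gene's mean over 6 libraries; red is above and blue below the mean, and the vertical line separates WT from Sd/Sd. Dppa3 and Pou5f1 are at 0.88 and 0.94 in WT replicate 3 and at 0.96 and 1.09 in Sd/Sd replicate 2, whereas Kit is at 0.22 and -0.49 there.

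The RNA-binding survival factors varied less. Nanos3 (ENSMUSG00000056155.5, chromosome 8) encodes a translational repressor that keeps migrating germ cells from dying. It measured 0.948, 1.10 and 0.853 CPM in WT against 0.752, 0.767 and 0.673 CPM in Sd/Sd. All Sd/Sd libraries lay below all WT libraries, which was so for 1 of the 9 tested members, Nanos3, and for 4.42% of all genes tested; the reverse held for 0 of 9 members and 3.26% of all genes. The means were 0.966 ± 0.123 and 0.731 ± 0.0503 CPM (SD, n = 3). The difference did not pass the test (log2 difference -0.40 ± 0.30 SE; 95% interval -1.08 to 0.27; edgeR adjusted p = 1.00, unadjusted p = 0.208). Its libraries held 31 to 58 counts, and the counting intervals of all 6 overlapped (those of WT replicate 2 and Sd/Sd replicate 3 were 0.833 to 1.42 and 0.463 to 0.945 CPM). The log2 fold change stayed between -0.48 and -0.30 whichever library was left out.

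Dnd1 (ENSMUSG00000044595.9, chromosome 18), the dead end gene, whose product works with Nanos proteins on germ cell messages, measured 2.28, 2.27 and 3.34 CPM in WT against 2.60, 2.62 and 1.41 CPM in Sd/Sd. Only Sd/Sd replicate 3 lay below the WT libraries. The log2 fold change was -0.25 ± 0.30 (SE; 95% interval -0.94 to 0.44; edgeR adjusted p = 1.00) and -0.01 without Sd/Sd replicate 3. In GENCODE M21 Dnd1 overlaps Wdr55, a gene on the opposite strand that held 15496 counts over the 6 libraries. Since no source used here states whether reads were counted by strand, those of both genes cannot be told apart where they overlap. Wdr55 itself stood at 51.2 ± 2.99 CPM in WT against 52.1 ± 0.848 CPM in Sd/Sd (SD, n = 3).

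Kit (ENSMUSG00000005672.6, chromosome 5) encodes the receptor tyrosine kinase for Kit ligand and was the most abundant member. It measured 77.2, 72.5 and 89.9 CPM in WT against 73.7, 54.9 and 105 CPM in Sd/Sd. The Sd/Sd libraries enclosed the WT range on both sides. With 3038 to 5131 counts per library, counting error was small beside this spread. The means were 79.9 ± 9.01 and 77.8 ± 25.1 CPM (SD, n = 3), and the log2 fold change was -0.04 ± 0.24 (SE; 95% interval -0.62 to 0.55; edgeR adjusted p = 1.00). Without Sd/Sd replicate 2 it was 0.16 and without Sd/Sd replicate 3 it was -0.31. Kit was lowest in Sd/Sd replicate 2, the library in which Pou5f1 and Dppa3 were highest.

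**Figure D4:**
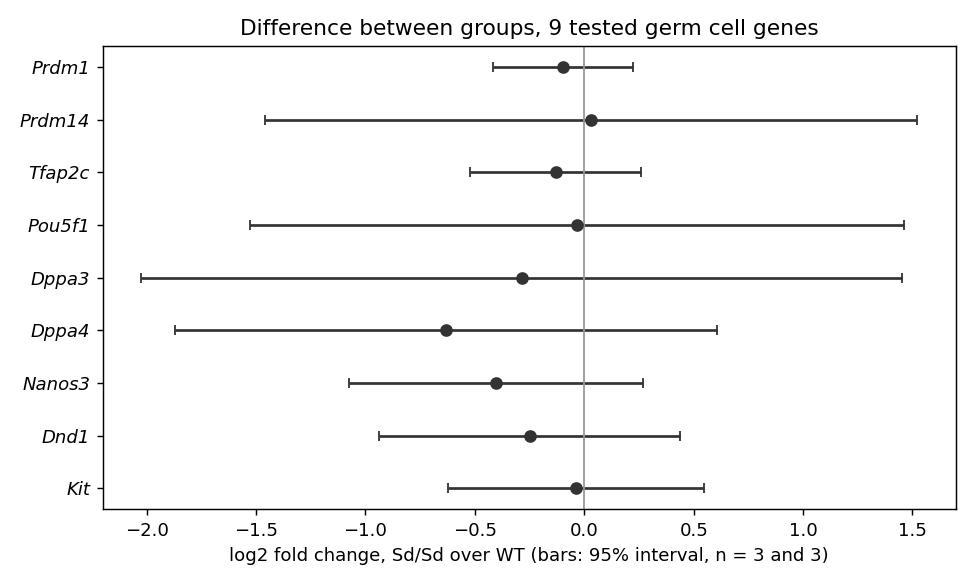
log2 fold change of Sd/Sd over WT (x axis) for the 9 tested germ cell genes (y axis); points are edgeR estimates and bars 95% intervals. All 9 intervals include 0, from the narrow one of Prdm1 (-0.42 to 0.22) to the wide one of Dppa3 (-2.02 to 1.45).

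Without 3 of the members, Kit, Prdm1 and Tfap2c, the other 7 together held 296, 290 and 395 counts in WT and 207, 545 and 181 counts in Sd/Sd. Scaled for library size these sums were 5.61, 5.49 and 9.36 CPM in WT against 5.02, 8.70 and 3.69 CPM in Sd/Sd, so the groups overlapped. With Kit, Prdm1 and Tfap2c the sums over all 10 were 98.4 to 120 CPM in WT against 81.5 to 128 CPM in Sd/Sd, of which Kit made up most.

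Sequence shared with other gene models limits some of these counts. Of the distinct windows of 50 bases in the GENCODE M21 transcripts, 38.6% for Dppa5a, 31.3% for Dppa4, 16.5% for Dppa3, 10.1% for Pou5f1 and 4% for Dnd1 also occur in a transcript of another gene model. For Nanos3, Prdm1, Prdm14, Tfap2c and Kit the share was 0. Windows were matched on both strands. The other models include Wdr55 for Dnd1 and Gm19553 for Pou5f1, which overlap these genes on the opposite strand. Of the copies of Dppa3 and Dppa4, Dppa3-ps, Gm15620, Gm5501 and Gm14058 are listed at 0 in all 6 libraries. No source used here states how reads with several matching places were treated. The levels of Dppa3, Dppa4, Dppa5a, Pou5f1 and Dnd1 are therefore uncertain in this respect.

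Other genes of primordial germ cells and pluripotency, 28 on a fixed list of which 24 were tested, gave 0 calls. Their median log2 fold change was -0.05, with 13 lower and 11 higher, beside a negative sign in 50.1% of all genes. Nanog, a pluripotency factor that germ cells keep, measured 0.341, 0.454 and 0.782 CPM in WT against 0.340, 0.671 and 0.388 CPM in Sd/Sd. It was thus highest within each group in WT replicate 3 and Sd/Sd replicate 2, the libraries in which Pou5f1 and Dppa3 were highest. Utf1, a chromatin factor of pluripotent cells chosen after its values were seen, had the same pair, at 1.21 and 0.910 CPM, against 0.326 to 0.738 CPM in the other 4 libraries. Of the 24 tested genes of this list 3 had that pair, Nanog, Utf1 and Sox15, and 21 did not, beside 6.88% of all genes tested.

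Sox2, which the neural tube also expresses, did not show this pair in WT, where replicate 1 was highest at 40.3 CPM. Ifitm3, an interferon-induced membrane protein gene and early germ cell marker, measured 15.5 ± 1.39 CPM in WT against 17.1 ± 2.13 CPM in Sd/Sd (SD, n = 3). Alpl, which encodes the alkaline phosphatase used to stain germ cells, measured 45.7 ± 13.7 and 35.4 ± 10.2 CPM. Of the 24 tested genes of this list, 4 had all Sd/Sd libraries below all WT libraries, against 4.42% of all genes. The reverse held for 1 of the 24, Klf4 (log2 fold change 0.48), against 3.26% of all genes. The smallest p-values on this list were those of Klf5 and Tfcp2l1, factors that epithelia also use. The log2 fold change of Klf5 was -0.73 ± 0.23 (SE; edgeR adjusted p = 1.00) and that of Tfcp2l1 was -0.72 ± 0.29 (SE; edgeR adjusted p = 1.00), and both lay below the WT range in every Sd/Sd library.

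Genes of the later germ line were mostly low. Of 22 on the list 10 were tested and 0 were called (median log2 fold change 0.26, 4 lower and 6 higher). Ddx4, the vasa helicase gene of settled germ cells, measured 0.661 ± 0.178 CPM in WT against 0.865 ± 0.381 CPM in Sd/Sd (SD, n = 3; edgeR adjusted p = 1.00). Dazl, an RNA-binding protein gene that germ cells switch on when they reach the gonad, had 1 count over the WT libraries and 7 over the Sd/Sd libraries, and the meiosis gene Stra8 had 0 in all 6. Tdrkh and Rnf17, tudor-domain genes of small RNA pathways, had the smallest p-values, with log2 fold changes of -0.29 ± 0.12 (SE; edgeR adjusted p = 1.00) and 0.57 ± 0.43 (SE; edgeR adjusted p = 1.00).

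Of the signals that induce and guide germ cells, 0 of 15 were called (median log2 fold change -0.05, 11 lower and 4 higher). Kitl, the ligand of Kit, measured 71.6, 84.6 and 78.4 CPM in WT against 69.3, 59.4 and 79.1 CPM in Sd/Sd, with overlap (log2 difference -0.18 ± 0.11 SE, edgeR adjusted p = 1.00). Cxcl12, the chemokine that attracts migrating germ cells, measured 279, 254 and 247 CPM in WT against 241, 230 and 176 CPM in Sd/Sd. Its groups did not overlap, and the difference had an unadjusted p of 0.0466 and an edgeR adjusted p = 1.00 (log2 difference -0.27 ± 0.12 SE). Cxcr4, its receptor, which mesoderm and endothelium also express, measured 28.4 ± 7.98 and 20.7 ± 1.38 CPM (log2 difference -0.45 ± 0.19 SE, edgeR adjusted p = 1.00), with overlap.

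The hindgut houses the germ cells at this stage, and its list had calls. Of 21 tested hindgut and cloacal endoderm genes, 2 fell, the hedgehog ligand genes Shh and Ihh (edgeR adjusted p = 0.0438 for each), 0 rose and 19 did not pass. Shh, Foxa1 and Foxa2 of this list are also expressed in notochord and floor plate, so their levels are not particular to hindgut. Genes of those tissues named here after their values were seen, Noto of the notochord and Nkx2-9 of the ventral neural tube, had log2 fold changes of -2.79 and -1.86 (edgeR adjusted p = 1.00 for both). The calls of Shh and Ihh were lost whichever library was left out (edgeR adjusted p = 0.0615 to 0.263 for Shh and 0.0933 to 0.317 for Ihh). The median log2 fold change was -0.48, and 20 of 21 had a negative sign. All Sd/Sd libraries lay below all WT libraries for 9 of the 21, against 1 of 9 germ cell genes and 4.42% of all genes. The mean centred log2 CPM of the hindgut list was 0.21 to 0.36 in WT and -0.39 to -0.23 in Sd/Sd, while that of the germ cell genes was -0.09 to 0.48 in WT and -0.37 to 0.20 in Sd/Sd. Its summed level, led by keratins that other epithelia share, was 799 to 1015 CPM in WT against 724 to 989 CPM in Sd/Sd. The difference between the lists was not tested. Depth also differed, with 3 to 52 counts per library for Dppa3, 32 to 164 for Ihh and 1201 to 2381 for Epcam. The part of counting error in how far each list separates the groups was not tested. Both lists were chosen with earlier results of these data known, so how far each separates the groups is no independent support. Of the libraries with most Pou5f1, WT replicate 3 had the highest hindgut value and Sd/Sd replicate 2 the lowest.

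**Figure D5:**
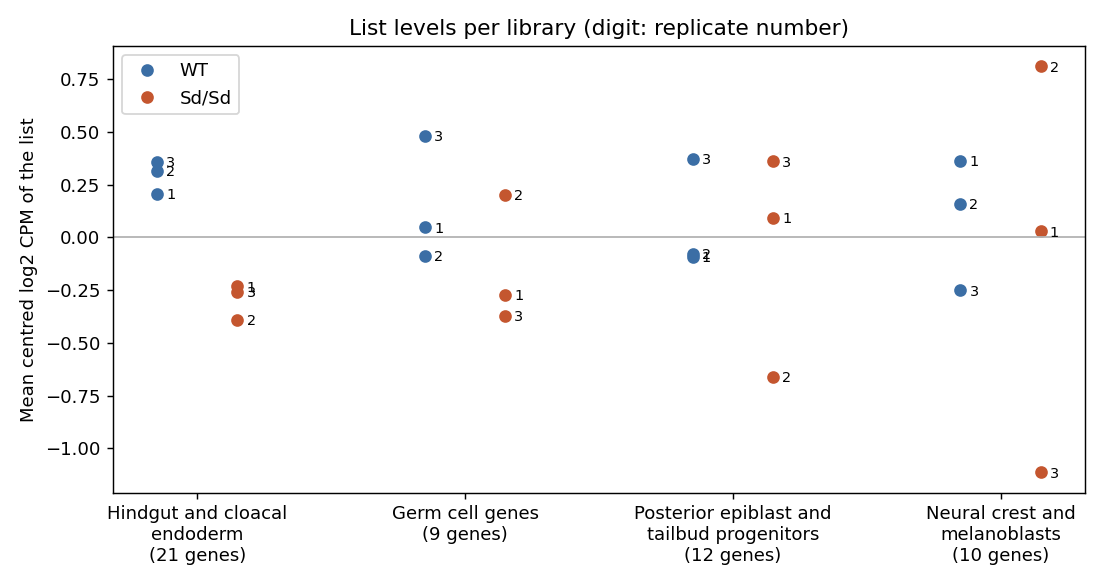
Mean centred log2 CPM (y axis) of 4 gene lists (x axis) in each library, WT in blue and Sd/Sd in orange, with the replicate number beside each point. The hindgut values of the groups are apart (0.21 to 0.36 against -0.39 to -0.23) and those of the germ cell genes overlap. The lists were chosen with earlier results of these data known.

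Markers of other cells that use the member genes also varied by library. Posterior epiblast and tailbud progenitor genes, 0 of 12 called, summed to 582 to 820 CPM in WT against 677, 385 and 900 CPM in Sd/Sd, and Cdx4 was listed at 0, as are all genes of its chromosome here. T, the Brachyury gene of that list, measured 144, 152 and 184 CPM in WT against 143, 77.1 and 203 CPM in Sd/Sd. Kit and T had the same library as lowest, Sd/Sd replicate 2, and the same as highest, Sd/Sd replicate 3. WT replicate 3 was next to the top in both. This match was looked at after the values were seen. Of all genes tested, 15.8% had WT replicate 3 and Sd/Sd replicate 3 as the highest libraries of their groups, as did 2 of the 9 tested members, Kit and Prdm14. Sp5 and Cdx1, the genes of the list with the smallest p-values, had log2 fold changes of -0.56 and -0.32 (edgeR adjusted p = 1.00 for both). The part of cell composition in the spread of Kit was not tested.

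Blood progenitor genes, 0 of 14 called, summed to 2623 to 5873 CPM in WT against 1334 to 6625 CPM in Sd/Sd, mostly embryonic globins. Gata1 was listed at 0, as are all genes of its chromosome, X, so its level cannot be read here. Runx1 and Spi1, factors of early blood, had the smallest p-values, with log2 fold changes of -0.44 and -1.04 (edgeR adjusted p = 1.00 for both). Neural crest and melanoblast genes, 0 of 10 called, summed to 75.5 to 90.8 CPM in WT against 74.1, 120 and 65.2 CPM in Sd/Sd. Of these Sox10, a crest factor, stood at 6.56 CPM in Sd/Sd replicate 2, 0.0204 CPM in Sd/Sd replicate 3 and 0.213 to 1.35 CPM elsewhere. The libraries at the ends for Dppa3 and Pou5f1 were thus also at the ends for Sox10. Within WT the order differed, as Sox10 was lowest in replicate 3 (0.213 CPM), where Dppa3 and Pou5f1 were highest. Erbb3, another crest gene, had a log2 fold change of -0.19 (edgeR adjusted p = 1.00). The pigment genes Tyr and Tyrp1 had 0 and 1 counts over all libraries.

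Surface ectoderm genes, where Tfap2c is also at home, had 0 of 12 called, with sums of 534 to 707 CPM in WT against 479 to 701 CPM in Sd/Sd. Epcam and Grhl2, epithelial genes with the smallest p-values there, had log2 fold changes of -0.55 (edgeR adjusted p = 0.333) and -0.21 (edgeR adjusted p = 1.00). Tfap2a, the related factor of ectoderm and crest, measured 14.5 ± 1.28 CPM in WT against 13.7 ± 1.49 CPM in Sd/Sd (SD, n = 3). The part of these tissues in the levels of the 10 genes was not tested.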

How the data were processed

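The authors deposited raw counts per gene, 1 file per library, with no header. Per the submitters' processing notes, the tools were STAR 2.5.2b, bcl2fastq 2.17.1.14, DESeq2, SAMtools and CASAVA, with build mm9. No source used here names the read counter, whether it used strand, or its annotation. Symbols came from GENCODE M21 names for 32620 of 37310 identifiers. Chromosomes and union exon lengths came from GENCODE M21, another build, and served for names and per-length levels.

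The filter was edgeR's filterByExpr (at least 10 counts, total of 15), which left 15471 genes with 99.97% of all reads counted. The genotypes were compared by edgeR 4.0.16 in R 4.3.3 (TMM, robust glmQLFit and glmQLFTest, 2-sided, Benjamini-Hochberg, threshold 0.05). The biological coefficient of variation was 18.6%. The standard error is the log2 fold change divided by the square root of F, and its 95% interval uses the t quantile of the fit. CPM use TMM factors. Counting intervals (95%, exact Poisson or binomial) cover counting error only. The list values per library are means of log2 CPM with a prior count of 2. An exact permutation test of 3 against 3 cannot give a p under 0.1.

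The members and lists were chosen with earlier results of these data known. Named genes are all 10 members; from each other list those called or, with none called, the 2 with the smallest p; and Ddx4, Dazl, Nanog, Sox2, Ifitm3, Alpl, Kitl, Cxcr4 and Cxcl12 whatever their result. Others were named after their values were seen.

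Deviations from the group means correlated over genes at 0.194, 0.144 and 0.275 for libraries of the same replicate number, 1 to 3. WT replicate 1 and Sd/Sd replicate 2 correlated at 0.182, above the 0.144 of number 2. The labels state no pairing, and these values do not establish one by number. The main fit was therefore unpaired, and a replicate block was an alternative. Replicates of a group differed by more than sampling noise. Alternatives were other size factors, DESeq2 1.42.0, limma-voom (limma 3.58.1), no robust option, other filters, the replicate block and leaving out each library.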

Additional observations from a re-analysis of the deposited data

How the results depend on the processing

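No germ cell gene was called in any of the 14 alternative fits. Over all genes, 6 higher and 3 lower calls became 19 and 15 with DESeq2, 3 and 0 with limma-voom, 3 and 0 without the robust option, 9 and 5 with no filter, and 2 to 5 and 0 to 1 when 1 library was left out; the cause was not tested. With the replicate block there were 8 and 4 calls and none among the members, so the block changed no call of theirs. The log2 fold change of Prdm14 turned in sign, to -0.0076. Leaving out 1 library turned the sign of 5 of the 9 tested members, whose log2 fold changes then ran from -1.44 to 0.22 for Dppa3, -0.96 to 0.55 for Pou5f1, -0.31 to 0.16 for Kit, -0.21 to 0.010 for Prdm1 and -0.68 to 0.54 for Prdm14. Dppa5a, below the filter, turned too, with a ratio of summed counts of 0.172 to 1.23. Nanos3, Dnd1, Tfap2c and Dppa4 kept a negative sign in all fits that tested them. The stricter filter left 5 members to test. Shh and Ihh also lost their calls with limma-voom (adjusted p = 0.0860 and 0.104) and without the robust option (0.0785 and 0.0566). Dppa3, Dppa4, Dppa5a and Prdm14 had at most 52 counts in a library, and in Sd/Sd their libraries also varied beyond counting error (variance over that of counting 19.4, 5.44, 7.42 and 5.96).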
